A study of Mus musculus with 4 samples.

Results

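The chemokine ligands were followed across the cell types of the mouse hippocampus after sham surgery and after 2VO surgery, in which both common carotid arteries are occluded. Members were all genes whose symbol is *Ccl* or *Cxcl* with a number and at most 1 letter after it, together with *Cx3cl1*, *Xcl1* and *Pf4*. They made up 45 of the 31053 genes listed, under 40 symbols, since 5 symbols stood on more than 1 row. Of these, 28 had 20 or more counts in the kept cells, 5 had 1 to 19 and 12 had 0. It was asked in which cell type each ligand was read, and whether its level differed between 2VO and sham within that cell type.

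All mice were male C57BL/6, 12 weeks old by the labels and 6 to 10 weeks old by the study's methods, and each library came from the whole hippocampus of 1 mouse. Mice of the 2VO group had both common carotid arteries clamped for 50 min, while sham mice had the clamps released immediately, and the tissue was taken on day 7. The tissue was dissociated with pronase, at 37 °C by the labels and 34 °C by the methods, without sorting of cells. Sham 1, sham 2 and 2VO 1 were analysed, and the second 2VO mouse was not analysed here. The 2VO side therefore rests on 1 mouse, and the tests below assume that 2VO mice vary as the sham mice do. The p-values rest on the spread between the 2 sham mice, with information shared over genes. They hold no spread between 2VO mice.

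Chemokines are small secreted proteins that bind G protein-coupled receptors on leukocytes and guide them along concentration gradients. CC and CXC ligands are named after the spacing of their first cysteines, and a subset of CXC ligands that carry a short glutamate-leucine-arginine motif attracts neutrophils through the receptor CXCR2. In the healthy brain most inflammatory chemokines are scarce, whereas CXCL12, CXCL14 and CX3CL1 are made by resident cells. Atypical receptors such as ACKR1 and ACKR3 bind chemokines without the usual G protein signal and carry, display or remove them.

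Keeping barcodes in which 650 or more genes were detected gave a total of 14147 cells. The sham mice contributed 5109 and 5126 of them, and the 2VO mouse 3912. The 3 libraries differed in depth, with a median of 8191, 5249 and 2311 unique molecular identifiers (UMIs, 1 per RNA molecule read) per cell, and 17681002 to 64667950 UMIs in all. Pairs of these libraries shared 12 to 15 cell barcodes. Since 2VO 1 was the shallowest library and the only 2VO library, depth and surgery cannot be told apart. The cells fell into 30 clusters, built without any chemokine ligand or receptor, and 14 classes were named from markers. The names mean "like" the cell type that the markers define, and this suffix is left out below. Of the vessels these were endothelial cells (ECs), smooth muscle cells of the vessel wall (VSMCs), pericytes (PERs) and leptomeningeal cells (VLMCs). Of the ventricles they were ependymal cells (EPNs) and the epithelium of the choroid plexus (CPECs). The glia were oligodendrocytes (OLGs), their precursor cells (OPCs) and astrocytes (ASTs), and the neuronal classes were glutamatergic neurons (GLUTNs), Cajal-Retzius neurons and neuronal precursors (NPCs). Microglia and macrophages were the immune classes. Macrophages were few, with 19, 23 and 37 cells in sham 1, sham 2 and 2VO 1, and the 8 macrophage markers summed there to 127, 125 and 107 counts per 10000 UMIs. ECs numbered 1032, 1608 and 1142 cells, and microglia 215, 204 and 396.

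Markers of other cell types stood higher within several classes of 2VO 1. The 8 endothelial markers summed to 4.33 and 6.12 counts per 10000 in the sham microglia and to 35.6 in the 2VO microglia, with none of the 8 at 0. In OPCs the same sum was 1.85, 4.64 and 13.7 in sham 1, sham 2 and 2VO 1. A sum over 8 microglial markers (*Sparc*, which ECs also express, left out) was 0.45 and 0.38 per 10000 in the sham ECs and 1.88 in the 2VO ECs. These sums moved with several ligand results below, and their part in those results was not tested.

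The 28 ligands with 20 or more counts held nearly all of the 97880 ligand UMIs, and their levels by class are given as UMI counts per 10000 UMIs of the class. UMIs stand for molecules read at the 3′ end, so that no correction for gene length was made. Macrophages held the highest mean level of 10 ligands, microglia of 8, and ECs, PERs, VLMCs, ASTs, NPCs, GLUTNs and Cajal-Retzius neurons of the other 10 between them. For 12 of the 28 the 3 libraries of the leading class lay wholly above those of the next class, and 17 had the same highest class in each of the 3 libraries. Summed over all ligands, output was highest in macrophages at 160, 144 and 65.9 counts per 10000 in sham 1, sham 2 and 2VO 1. Microglia followed with 96.0, 39.1 and 46.2, and ECs with 43.6, 35.7 and 32.1. OLGs, at the low end, had 1.08, 0.384 and 1.65.

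**Figure D1:**
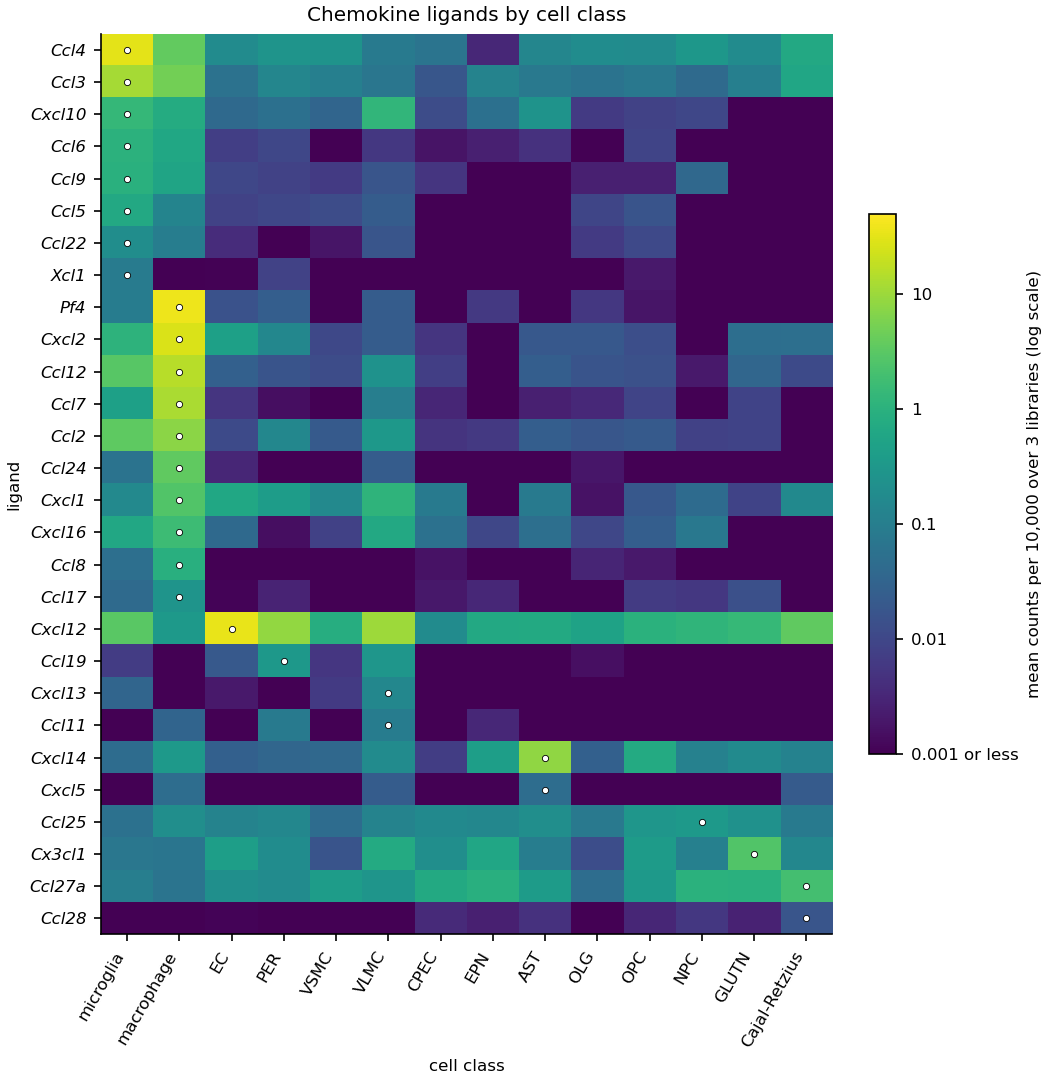
Heat map of the 28 ligands with 20 or more counts (rows) by class (columns). Colour gives the mean over the 3 libraries of the UMI counts per 10000 UMIs of the class, on a log scale, and a white dot marks the class with the highest mean. *Cxcl12* stands out in ECs at 34.8, *Ccl4* and *Ccl3* in microglia at 32.0 and 11.7, and *Pf4*, *Cxcl2*, *Ccl12*, *Ccl7* and *Ccl2* in macrophages.

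*Cxcl12* (chr6:117168535-117181367, plus strand, GRCm38), the ligand of CXCR4 that holds stem cells and leukocytes in their niches, was the most abundant chemokine and belonged to the vessels. ECs read 42.6 counts per 10000 in sham 1, 33.7 in sham 2 and 28.0 in 2VO 1 (34.8 ± 7.34, SD, n = 3), and held 79.9% of its 58515 counts. All 3 endothelial values lay above those of VLMCs (10.3 ± 4.68) and PERs (8.66 ± 5.62), the next classes, whose values overlapped. A *Cxcl12* UMI was found in 84.0% of sham 1 ECs (exact 95% interval 81.6 to 86.2), 86.1% of sham 2 ECs (84.3 to 87.7) and 79.8% of 2VO 1 ECs (77.3 to 82.1). OLGs, which should lack it, had 17.6%, 5.10% and 7.48% at median depths of 11458, 7945.5 and 2266.5 UMIs against 3009, 2645 and 2031.5 in ECs. With every cell thinned to 1000 UMIs, the share was 76.9%, 76.99% and 71.2% in ECs and 3.82%, 1.13% and 3.43% in OLGs, with 29, 9 and 58 shallower ECs and 0, 0 and 3 OLGs left out. Intervals of shares cover counting error only.

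Within ECs the level of *Cxcl12* differed between clusters. It was highest in cluster 1, at 57.2, 48.4 and 42.9 counts per 10000 in sham 1, sham 2 and 2VO 1, and in cluster 2, at 45.8, 41.9 and 40.4. Cluster 5 had 40.6, 31.3 and 35.3, and none of these 3 clusters was given a vessel segment. The cluster with fenestrated markers had 20.3, 3.69 and 8.04. The cluster with arterial markers had 21.5, 22.0 and 11.9. The cluster with venous markers had the least, at 3.67, 2.62 and 3.85, which was below every other endothelial cluster in sham 1, sham 2 and 2VO 1. Because these clusters came from the same cells, the levels are given as a description with no test.

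*Ccl4* and *Ccl3*, neighbours on chromosome 11 (*Ccl4* at chr11:83662584-83664683 on the plus strand, *Ccl3* at chr11:83647844-83649355 on the minus strand) and both inflammatory ligands of leukocytes, were the chief chemokines of microglia. *Ccl4* was read at 57.8, 17.4 and 20.8 counts per 10000 in the microglia of sham 1, sham 2 and 2VO 1 (32.0 ± 22.4), and microglia held 91.0% of its 10867 counts. *Ccl3* was read there at 21.1, 6.87 and 7.09 (11.7 ± 8.13), with 88.7% of 4063 counts. For both genes sham 1 stood far above the other libraries, and sham 2 lay close to 2VO 1. Macrophages came next at 3.67 for *Ccl4* and 4.97 for *Ccl3*, and for *Ccl3* the ranges of the 2 classes overlapped. Both were found in the same microglia, with *Ccl4* UMIs in 107 of 120 *Ccl3*-positive cells from sham 1, 49 of 65 from sham 2 and 142 of 165 from 2VO 1. A *Ccl4* UMI was found in 60% (53.1 to 66.6) of the microglia of sham 1, 36.8% (30.1 to 43.8) of sham 2 and 58.6% (53.6 to 63.5) of 2VO 1. A positive cell carried 49.0, 20.4 and 8.75 *Ccl4* UMIs on average, at median depths of 4835, 4236 and 1872.5 UMIs per microglial cell.

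The other microglial ligands were 2 CCR1 ligands of the same gene cluster and the interferon-induced *Cxcl10*. *Ccl6* was read at 1.62, 0.876 and 0.665 counts per 10000 (87.2% of 366 counts in microglia) and *Ccl9* at 1.52, 0.956 and 0.420 (83.1% of 350). For both, the range of microglia overlapped that of macrophages, whose means were 0.623 for *Ccl6* and 0.562 for *Ccl9*. Microglia were the highest class in 2 of the 3 libraries for each gene. *Cxcl10*, a CXCR3 ligand, was read at 1.11, 0.796 and 2.08, and VLMCs overlapped with it at a mean of 1.24.

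Macrophages had the highest mean levels of the ligands of CCR2, the receptor of monocytes, and of the neutrophil attractants *Cxcl1* and *Cxcl2*, though for *Ccl2* their range overlapped that of microglia and for *Cxcl1* that of VLMCs. *Ccl7* was read there at 29.8, 4.93 and 3.104 counts per 10000 in sham 1, sham 2 and 2VO 1 (12.6 ± 14.9, from 8, 8 and 10 cells), *Ccl12* at 26.2, 14.9 and 6.91 (16.004 ± 9.70) and *Ccl2* at 8.60, 11.5 and 2.80 (7.63 ± 4.43). Because microglia outnumbered macrophages, they nonetheless held 62.0% of the 1399 *Ccl12* counts and 75.1% of the 1379 *Ccl2* counts, at lower levels of 2.97 and 3.37. *Ccl8*, a further CCR2 ligand, had only 48 counts and a macrophage mean of 0.916. *Cxcl2*, a CXCR2 ligand, was read in macrophages at 22.3, 50.4 and 9.41, with 43.3% of its 1780 counts there and 30.8% in ECs. Its relative *Cxcl1* had macrophage levels of 0.573, 3.87 and 3.60, while ECs held 51.7% of its 1397 counts. *Ccl24*, a CCR3 ligand known for attracting eosinophils, was read at 4.44, 2.51 and 3.80 (3.59 ± 0.982), with 79.8% of 119 counts in macrophages.

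*Pf4* (chr5:90772435-90773383, plus strand), known as platelet factor 4 and used by the study as a macrophage marker, had the highest mean level of the macrophage chemokines, though *Cxcl2* was higher in sham 2. It was read at 53.7, 42.9 and 17.6 counts per 10000 (38.1 ± 18.5), and 92.0% of its 1082 counts lay in macrophages. It was found in 94.7% (74.0 to 99.9), 95.7% (78.1 to 99.9) and 75.7% (58.8 to 88.2) of the macrophages of sham 1, sham 2 and 2VO 1, against 0.0969%, 0.187% and 0.613% of ECs. The 2VO macrophages were lower in both measures.

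*Cxcl14* (chr13:56288643-56296551, minus strand), an orphan CXC ligand of resting tissues, marked ASTs. They read 7.98, 9.86 and 6.92 counts per 10000 (8.25 ± 1.49) and held 64.4% of 4110 counts, with OPCs next at 0.738. GLUTNs had the highest level of *Cx3cl1* (chr8:94772009-94782427, plus strand), the membrane-bound neuronal ligand of the microglial receptor CX3CR1, at 3.19, 2.67 and 2.14 (2.66 ± 0.524), above VLMCs at 0.752 in every library. CPECs, the class with the most UMIs per cell, nonetheless held 29.8% of the 3066 *Cx3cl1* counts. *Cxcl16*, the other membrane-bound ligand, which binds CXCR6, was highest in macrophages at 1.29, 1.64 and 2.10 (1.68 ± 0.408), with 35.9% of 618 counts in CPECs.

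*Ccl27a* and *Ccl25*, known as skin and gut chemokines, were low and widespread. *Ccl27a* (chr4:41769467-41774247, minus strand) was highest in Cajal-Retzius neurons at 2.55, 2.10 and 1.24 counts per 10000, with 59.4% of 5092 counts in CPECs. *Ccl25* had means of 0.329 in NPCs and 0.297 in OPCs, which overlapped, and 40.3% of 1746 counts in CPECs. *Ccl27a* overlaps *Il11ra1*, *Ccl25* overlaps *Elavl1*, *Cxcl16* overlaps *Zmynd15* and *Cxcl10* overlaps *Art3* on the opposite strand in the GENCODE vM21 annotation. *Ccl19*, the CCR7 ligand of lymphoid stroma, was read in PERs (0.318) and VLMCs (0.297) with 192 counts in all, and it has near-identical copies between which reads may be split. *Cxcl13*, the B-cell attractant, had 25 counts, of which 48.0% were in VLMCs, and *Ccl11* had 51, of which 72.5% were in PERs. *Cxcl5* with 26 counts and *Ccl28* with 38 were too few to place.

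The counts of *Ccl5*, *Xcl1*, *Ccl22* and *Ccl17* lay in few cells, some of which had clustered with microglia. *Ccl5* was read in the microglial class at 0.0548, 1.18 and 0.860 counts per 10000, and this class held 83.6% of its 232 counts, 80.0% of the 30 *Xcl1* counts and 57.9% of the 95 *Ccl22* counts. At a finer clustering (resolution 2.0) an unnamed cluster of 64 cells, in which sham 1 had 12, sham 2 had 23 and 2VO 1 had 29, separated from them. Its leading genes were *Cd52*, *Ms4a4b*, *Trbc2*, *Nkg7*, *Plac8*, *Cd3d* and *Cd3g*, and the microglial shares of *Ccl5*, *Xcl1* and *Ccl22* then became 15.5%, 0% and 5.26%. *Xcl1*, the ligand of XCR1 known from T and NK cells, was carried by 2 cells of sham 2, both with at least 2 T or NK cell markers, and by 8 cells of 2VO 1, of which 4 had them. Of the *Ccl5*-positive cells 0 of 9, 3 of 8 and 7 of 42 in sham 1, sham 2 and 2VO 1 had at least 2 such markers, so that most lacked them. A single sham 2 cell with 13459 UMIs, positive for *Flt3* and *Ccr7*, held 50 of the 60 *Ccl22* counts and 11 of the *Ccl17* counts of its library. These cells were picked after their values were seen.

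The remaining 17 rows had fewer than 20 counts. *Cxcl9* had 13, *Ccl20* and *Cxcl3* had 9 each, *Cxcl17* had 4 and *Ccl21a* had 3. *Ccl1*, *Ccl26*, *Cxcl15*, *Ccl27b*, 2 rows each of *Ccl21b*, *Ccl21c* and *Ccl27*, and the second rows of *Ccl19* and *Ccl21a* had no count. A count of 0 allows up to 3 counts per gene at this depth.

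To compare 2VO with sham, the counts of each class were summed per library and tested with the quasi-likelihood test of edgeR over all genes of the class, with Benjamini-Hochberg adjustment. Values are then CPM (counts per 1000000 UMIs) scaled by TMM factors, and calls needed a fold over 1.5 beside an adjusted p below 0.05. With a ligand needing 20 summed counts in a class, 26 ligands gave 118 pairs of ligand and class in 13 classes. Of the 118 pairs, 15 were called, 12 higher and 3 lower in 2VO, against a background of 4.96 percent of all genes over the same classes, 2.25 higher and 2.71 lower. These calls belonged to 8 ligands in 5 classes, namely ECs, CPECs, microglia, OPCs and GLUTNs. The median log2 fold change of the 118 pairs was 0.23, compared with −0.02 over all genes. In 56 pairs 2VO 1 lay above both sham libraries and in 34 below both, against 40.1% and 41.4% of all genes. An unadjusted p under 0.05 was reached by 44 pairs. Among all genes of a class this cut-off was reached by 6.63 percent in VLMCs, the lowest share, to 38.8 percent in OPCs, the highest.

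**Figure D2:**
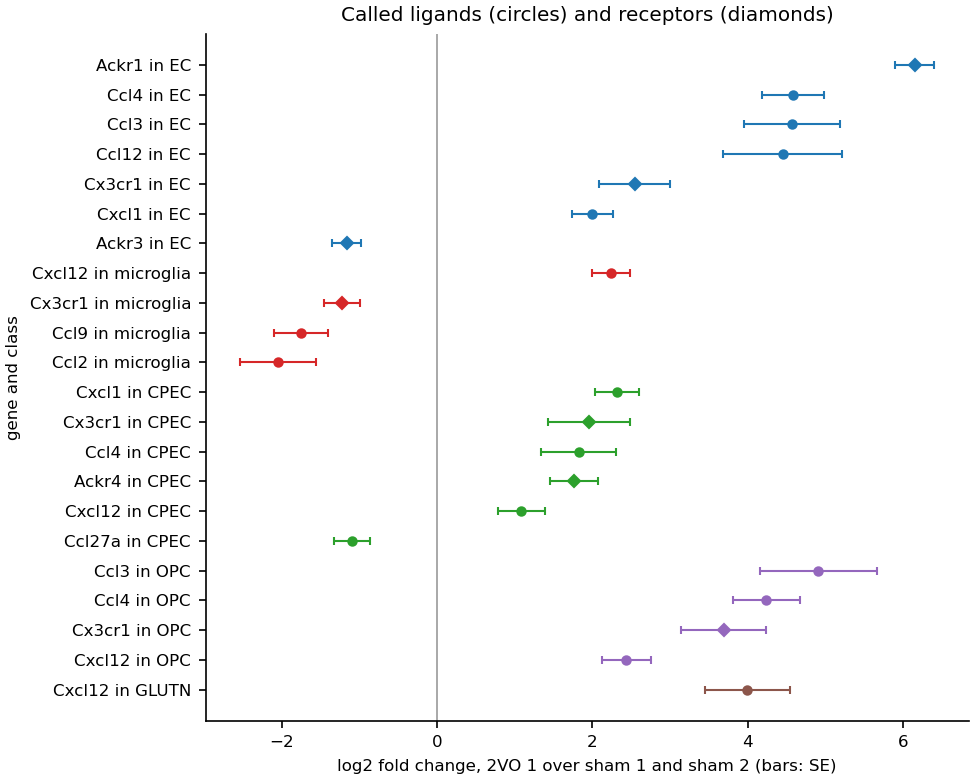
Log2 fold change of 2VO 1 over the 2 sham libraries (x axis, bars are a standard error derived from the edgeR test) for the called pairs of gene and class (y axis). Circles are ligands, diamonds are receptors, and colour marks the class. The 15 ligand pairs run from −2.04 for *Ccl2* in microglia to 4.91 for *Ccl3* in OPCs, and *Ackr1* in ECs stands highest at 6.15.

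In ECs the CXCR2 ligand *Cxcl1* and low amounts of *Ccl3*, *Ccl4* and *Ccl12* were higher after 2VO, while *Cxcl12* did not pass the test. Of 14 ligands tested, 4 rose and 0 fell, against a background of 2.03 percent of endothelial genes called, 1.69 higher and 0.34 lower. *Cxcl1* was read at 22.4 and 38.4 CPM in sham 1 and sham 2 and at 123 CPM in 2VO 1, from 90, 223 and 409 counts. The 2VO library thus lay above both sham libraries, with a log2 fold change of 2.00 ± 0.27 (SE, adjusted p = 0.0118). *Cxcl2*, its neighbour in the genome, was read at 9.19 and 31.7 CPM in sham and 98.9 CPM in 2VO (log2 fold change 2.22 ± 0.46, adjusted p = 0.0534), which missed the threshold. The spread between the sham libraries was wider for *Cxcl2* than for *Cxcl1*. *Cxcl12* was read at 4299, 3545 and 2658 CPM, lowest in 2VO 1 (−0.56 ± 0.21, adjusted p = 0.2). *Cxcl12* made up 97.7% and 94.6% of the ligand counts of sham ECs and 87.2% of those of 2VO ECs. The mix of endothelial clusters behind these values differed between libraries, as given below.

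*Cxcl1* (chr5:90891241-90893115) and *Cxcl2* (chr5:90903871-90905938) lie on the plus strand among 11 ligand rows of chromosome 5. Their promoters are shown because both genes stood highest in the same endothelial cluster of 2VO 1, given below, as the 200 bases from −250 to −51 before the RefSeq start on GRCm38.p6, 5′ to 3′ on the plus strand. Capitals mark 11 bases in which GGGANNTTC, an NF-kappa B type motif, matches on both strands with overlap.
*Cxcl1* promoter, chr5:90890995-90891194: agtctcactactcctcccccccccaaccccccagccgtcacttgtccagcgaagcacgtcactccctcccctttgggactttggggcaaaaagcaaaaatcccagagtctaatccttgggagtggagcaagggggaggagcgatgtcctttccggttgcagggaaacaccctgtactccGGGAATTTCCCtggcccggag
*Cxcl2* promoter, chr5:90903649-90903848: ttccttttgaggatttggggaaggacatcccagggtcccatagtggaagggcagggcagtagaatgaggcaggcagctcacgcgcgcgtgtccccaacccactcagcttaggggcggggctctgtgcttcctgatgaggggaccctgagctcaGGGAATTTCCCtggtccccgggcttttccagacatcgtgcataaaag
The same 11 bases stand at −71 to −61 in *Cxcl1* and at −97 to −87 in *Cxcl2*. Searched on both strands in the 250 bases before the start, GGGANNTTC was found in 3.17% of 27025 promoters and in 6 of the 29 ligand promoters of the table, those of *Ccl1*, *Cxcl1*, *Cxcl2*, *Cxcl3*, *Cxcl9* and *Cxcl10*. GGGNNTTCC, a second NF-kappa B type motif, was found in 4.88% of promoters and in 5 of the 29, those of *Ccl9*, *Ccl19*, *Ccl20*, *Cxcl9* and *Cxcl10*. GAAANNGAA, an interferon type motif, was found in 7.16% and in 6, those of *Ccl1*, *Ccl3*, *Ccl19*, *Cxcl9*, *Cxcl10* and *Cxcl14*. A match is a description of letters and not a bound site.

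In 2VO 1 most endothelial *Cxcl1* and *Cxcl2* lay in 1 cluster. The cluster with venous markers (64, 91 and 149 cells) held 2, 53 and 295 *Cxcl1* counts in sham 1, sham 2 and 2VO 1, in 2, 8 and 40 cells, or 0.0496, 1.36 and 4.27 counts per 10000. *Cxcl2* had 0, 98 and 290 counts there, in 0, 5 and 23 cells. For both genes 2VO 1 was highest and sham 1 lowest. Its leading genes included *Lcn2*, *Lrg1*, *Vwf*, *Ptgs2*, *Ch25h*, *Sele* and *Il1r1*, among which *Sele* is the leukocyte adhesion molecule of inflamed endothelium. Cluster 5, led by *Klf2*, *Hspb1*, *Apold1* and *Hspa1a*, had 80, 155 and 89 *Cxcl1* counts, or 1.01, 0.494 and 0.974 per 10000, with 2VO 1 between the sham values. Over all ECs a *Cxcl1* UMI was found in 2.52% (1.65 to 3.67), 4.48% (3.52 to 5.61) and 7.88% (6.38 to 9.60) of cells, against 0.465%, 0.490% and 3.28% of microglia. A positive EC carried 3.46, 3.097 and 4.54 *Cxcl1* UMIs on average. Endothelial clusters were unevenly spread over the libraries. The venous cluster held 64 of 1032, 91 of 1608 and 149 of 1142 ECs in sham 1, sham 2 and 2VO 1. Cluster 1, highest in *Cxcl12*, held 415, 479 and 253. The part of this mix in the results for all ECs, *Ackr1* below among them, was not tested.

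**Figure D3:**
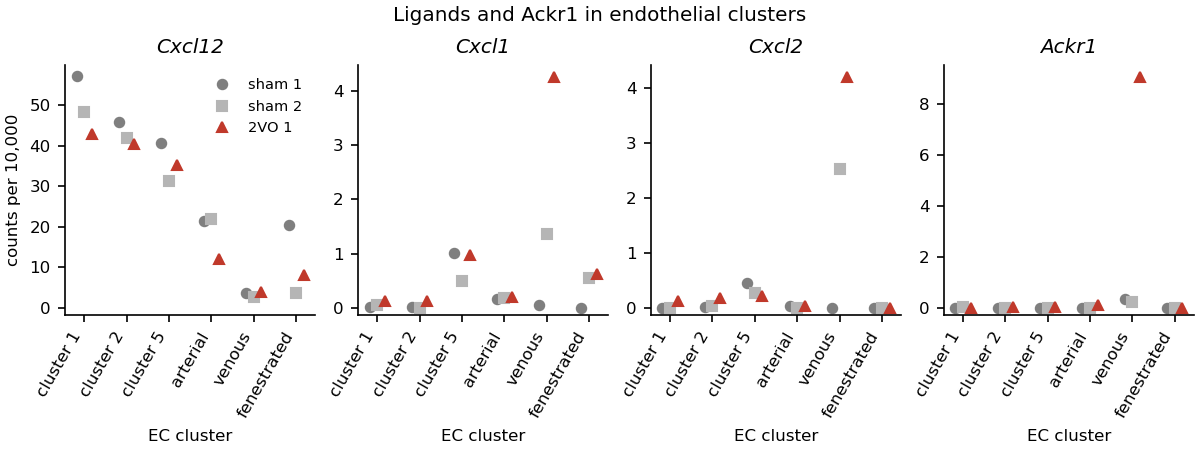
Counts per 10000 UMIs of *Cxcl12*, *Cxcl1*, *Cxcl2* and *Ackr1* (panels) in each endothelial cluster (x axis) and library (markers). *Cxcl12* is lowest in the venous cluster, whereas *Cxcl1*, *Cxcl2* and *Ackr1* are highest there in 2VO 1, at 4.27, 4.20 and 9.07.

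The other 3 ligands called in ECs are ones that microglia and macrophages lead. *Ccl4* was read at 2.98 and 1.20 CPM in the sham ECs and 47.9 CPM in the 2VO ECs (4.59 ± 0.40, adjusted p = 0.00128). *Ccl3* was read at 0.994, 0.344 and 15.4 CPM (4.57 ± 0.62, adjusted p = 0.0118) and *Ccl12* at 0.248, 0.344 and 7.23 CPM (4.45 ± 0.77, adjusted p = 0.031). For all 3 the 2VO library stood apart from both sham libraries. *Ccl4* had 12, 7 and 159 counts and *Ccl3* 4, 2 and 51. With so few sham counts all 3 ligands reached 20 counts only through 2VO 1 and could be called only higher. The *Ccl12* value rests on 3 sham counts and 24 2VO counts, a ratio of 23.7 with a counting interval of 7.2 to 123. Without sham 2 the untested log2 fold changes were 3.82 for *Ccl4*, 3.45 for *Ccl3* and 3.45 for *Ccl12*, and without sham 1 that of *Ccl12* was 3.26. All untested values here and below add a prior count of 2 before the ratio, which shrinks the folds of low counts. They are not on the scale of the tested values, so a gap from those is not read as the effect of what was left out. *Ccl4* counts were spread over the 6 endothelial clusters of 2VO 1, with 20, 59 and 47 in clusters 1, 2 and 5, 18 in the venous, 13 in the arterial and 2 in the fenestrated cluster. A *Ccl4* UMI was found in 11.8% (10.01 to 13.8) of 2VO ECs with 1.18 UMIs per positive cell, which was not above the 13.4% (11.05 to 16.01) of 2VO OLGs, so that no expression by ECs is read from it. The microglial markers were higher in 2VO ECs than in sham ECs, as given above, and their ratio to *Ccl4* did not stay fixed, with 0.066, 0.030 and 0.268 *Ccl4* counts per marker count in ECs and 0.289, 0.081 and 0.178 in microglia.

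**Figure D4:**
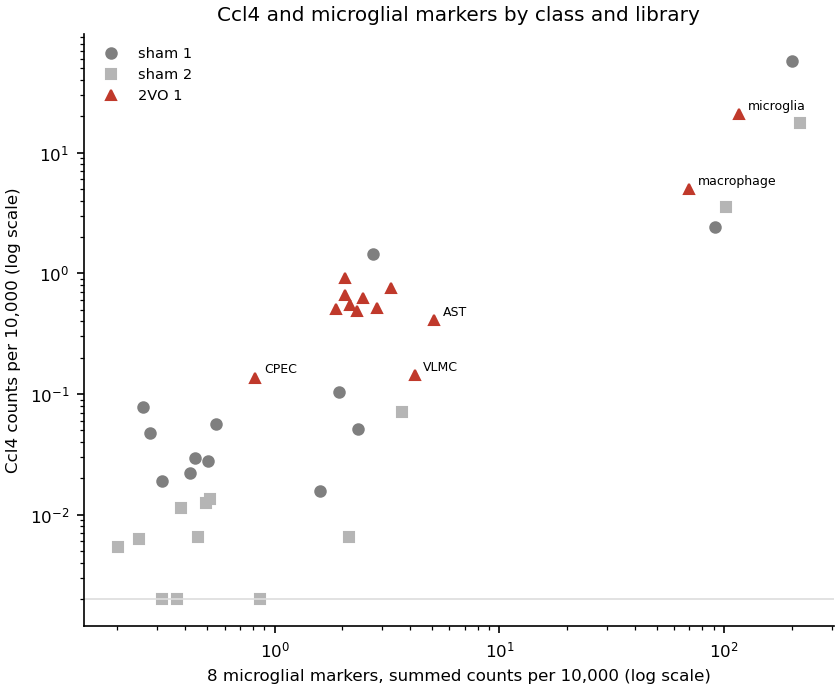
*Ccl4* counts per 10000 UMIs (y axis, log scale) against the summed counts per 10000 of 8 microglial markers (x axis, log scale), 1 point per class and library, without EPNs. The grey line holds values of 0. Most classes of 2VO 1 lie to the upper right of the same classes in sham, as ECs do with 1.88 marker counts against 0.45 and 0.38.

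CPECs, which make the cerebrospinal fluid, had 4 called ligands among 15 tested, 3 higher and 1 lower, against a background of 6.98 percent, 2.03 higher and 4.95 lower. *Cxcl1* was read at 3.69 and 2.58 CPM in sham 1 and sham 2 and 16.3 CPM in 2VO 1, above both (2.31 ± 0.28, adjusted p = 0.000266). *Ccl27a* was read at 76.3 and 100 CPM in sham and 41.2 CPM in 2VO, below both, and fell by 1.09 ± 0.24 on the log2 scale (adjusted p = 0.00926). *Cxcl12* was read at 8.54, 17.9 and 26.8 CPM (1.08 ± 0.30, adjusted p = 0.0378), and endothelial markers in CPECs at 1.11, 1.33 and 2.82 counts per 10000. *Ccl4* was read at 4.93, 0.704 and 11.7 CPM (1.82 ± 0.48, adjusted p = 0.0281), so that the ratio between the sham libraries was larger than that of 2VO 1 to sham 1. Without sham 1 the untested log2 fold change of *Ccl4* was 3.80, without sham 2 it was 1.22, and for *Cxcl12* these values were 0.57 and 1.63. With the cell that held the most *Ccl4* UMIs left out of each library, *Ccl4* had 3.57. *Cx3cl1* at 24.9, 20.2 and 17.2 CPM (adjusted p = 0.348), *Ccl25* (0.724) and *Cxcl16* at 5.01, 4.81 and 6.95 CPM (0.403) did not pass the test.

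Microglia had 3 called ligands among 18 tested, 1 higher and 2 lower, against a background of 7.73 percent, 5.05 higher and 2.68 lower. *Ccl2* (chr11:82035571-82037453, plus strand), the main CCR2 ligand, was read at 656 and 283 CPM in the sham microglia and 114 CPM in the 2VO microglia, below both, and fell by 2.04 ± 0.49 on the log2 scale (adjusted p = 0.0465). *Ccl9* (chr11:83572919-83578636, minus strand) was read at 159, 102 and 38.9 CPM and fell by 1.75 ± 0.35 (adjusted p = 0.0285). Without sham 1 the untested value of *Ccl2* was −1.30. In the same cells the 8 microglial markers summed to 200, 216 and 117 counts per 10000, lowest in 2VO 1, and 11 of 21 genes of the early response to dissociation fell. Their part in these results was not tested. *Cxcl12* was read at 117 and 152 CPM in sham and 635 CPM in 2VO and rose by 2.24 ± 0.24 (adjusted p = 0.00527), while endothelial markers stood at 4.33, 6.12 and 35.6 counts per 10000 in the same cells. Leaving out the cell with the most *Cxcl12* UMIs in each library gave an untested value of 3.03. Of the 2VO microglia, 108 of 396 had a *Cxcl12* UMI, and 86 of those 108 also had *Cldn5* and 91 had *Flt1*, both endothelial genes. In the sham microglia 7 of 215 and 13 of 204 had a *Cxcl12* UMI.

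The abundant microglial ligands did not pass the test. *Ccl4* was read at 6079 and 1859 CPM in sham and 1927 CPM in 2VO (−1.04 ± 0.59, adjusted p = 0.311), and *Ccl3* at 2215, 732 and 658 CPM (adjusted p = 0.238). In both cases 2VO 1 resembled sham 2, and the sham libraries spanned most of the range. *Cxcl10* was read at 116, 84.9 and 193 CPM (0.93 ± 0.26, adjusted p = 0.0714), highest in 2VO 1. *Ccl6* at 170, 93.4 and 61.7 CPM (adjusted p = 0.121), *Ccl12* at 288, 388 and 235 CPM (0.26) and *Ccl7* at 106, 25.5 and 15.2 CPM (0.146) were all lowest in 2VO 1. *Ccl22* had 5, 50 and 0 counts (adjusted p = 0.123).

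Different clusters held most microglia of the groups. Cluster 8 had 78 and 91 cells in sham and 379 in 2VO, whereas cluster 17 had 137, 113 and 17. Within cluster 8 none of the 10 ligands and receptors named for microglia was called by edgeR, with adjusted p from 0.982 to 0.991. The share of all genes called within this cluster is not given here. The lack of calls is therefore not read as a result about the ligands. Within the cluster *Ccl9* had a log2 fold change of −1.77, against −1.75 in the whole class. The values there were −0.75 for *Ccl2*, 0.81 for *Cxcl12* and 1.25 for *Cxcl10*. *Ccl12*, lower in the whole class, had 0.91 within the cluster.

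Macrophages, the class with the highest ligand levels, had 11 ligands tested and 0 called, against a background of 0.0 percent of 2193 genes by edgeR. At an unadjusted p under 0.05 there were 180 genes and 2 ligands, and DESeq2 called 0. *Pf4* was read at 6774 and 5375 CPM in the sham macrophages and 2245 CPM in the 2VO macrophages (−1.43 ± 0.49, adjusted p = 0.546). *Cxcl2* was read at 2818, 6307 and 1199 CPM (−1.93 ± 0.72), *Ccl2* at 1084, 1441 and 357 CPM (−1.82 ± 0.47) and *Ccl12* at 3306, 1864 and 880 CPM (−1.55 ± 0.59), each with an adjusted p of 0.546. Together with *Ccl7* at 3757, 617 and 396 CPM, these 5 lay below both sham libraries. *Ccl8* at 72.3, 96.8 and 179 CPM, *Cxcl16* at 163, 206 and 268 CPM and *Ccl4* at 307, 448 and 638 CPM lay above both. OLG markers in this class summed to 4.15, 1.55 and 23.6 counts per 10000, and macrophage markers to the values given above.

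**Figure D5:**
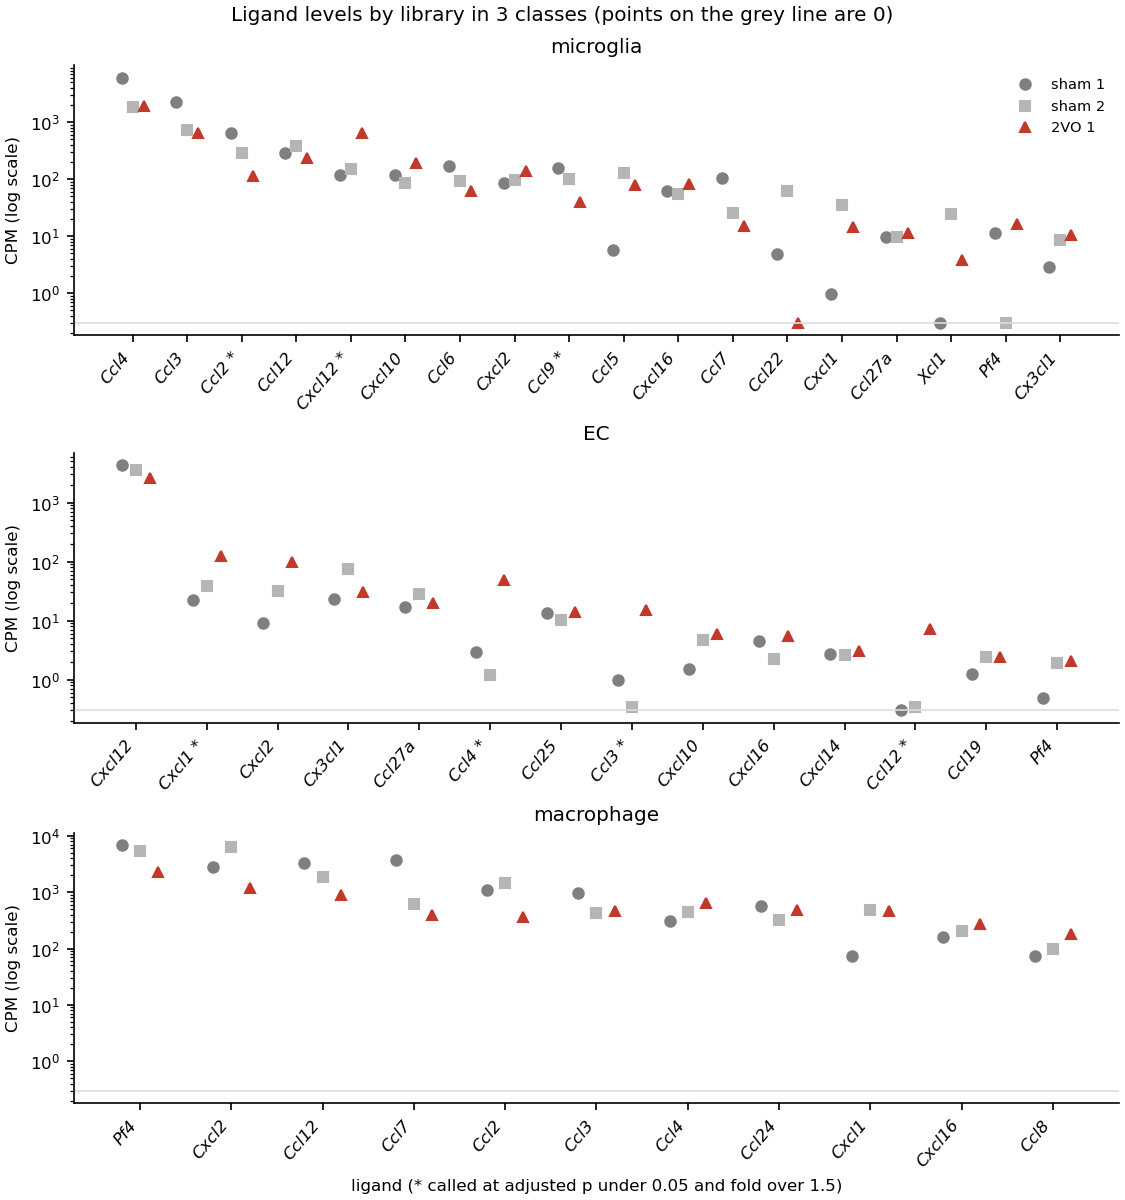
Ligand levels in CPM (log scale) in microglia, ECs and macrophages (panels), with 1 marker per library. Asterisks mark called ligands and the grey line holds values of 0. In macrophages 5 ligands, *Pf4* among them at 2245 against 6774 and 5375, lie below both sham libraries.

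OPCs had 3 called ligands among 8 tested, all higher, against a background of 25.0 percent, 11.1 higher and 13.9 lower. *Ccl4* was read at 2.98 and 1.29 CPM in sham and 46.9 CPM in 2VO (4.24 ± 0.43, adjusted p = 0.000639), *Ccl3* at 0.893, 0 and 20.005 CPM (4.91 ± 0.75, adjusted p = 0.0046) and *Cxcl12* at 27.1, 52.4 and 207 CPM (2.44 ± 0.32, adjusted p = 0.00217). All 3 were higher in 2VO 1 than in both sham libraries. Without sham 2 the untested value of *Ccl3* was 3.83. Microglial markers in OPCs summed to 0.51, 0.50 and 2.87 counts per 10000, and endothelial markers to 1.85, 4.64 and 13.7. *Ccl4* was found in 12.0% (9.26 to 15.2) of 2VO OPCs, a share not above that of OLGs, and no expression by OPCs is read from it. Here too the groups came from different clusters, with cluster 6 holding 577, 261 and 63 OPCs and cluster 12 holding 50, 38 and 387. *Cxcl14* was read at 70.7, 105 and 49.2 CPM (adjusted p = 0.0601).

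In GLUTNs 1 of 5 ligands was called, higher, against a background of 0.678 percent, 0.632 higher and 0.046 lower. *Cxcl12* was read at 12.99 and 28.4 CPM in sham and 365 CPM in 2VO (3.996 ± 0.54, adjusted p = 9.68e-06), from 5, 30 and 39 counts in 48, 108 and 15 cells. Endothelial markers in the same cells were at 1.11, 2.80 and 19.8 counts per 10000. *Cx3cl1*, the ligand that GLUTNs lead in, was read at 320, 304 and 206 CPM, lowest in 2VO 1 (−0.60 ± 0.58, adjusted p = 0.694).

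No ligand was called in the other 7 classes, where the background was 0.0 percent in OLGs and PERs, 0.0144 in VLMCs, 0.0195 in ASTs, 0.0315 in VSMCs, 5.61 in Cajal-Retzius neurons and 6.23 in NPCs. By unadjusted p under 0.05 there were 4 of 8 ligands in OLGs, 5 of 11 in PERs, 2 of 8 in VLMCs and 3 of 5 in VSMCs. All genes reached this cut-off at 32.1, 13.8, 6.63 and 12.5 percent in these classes. It was reached by 1 of 4 ligands in Cajal-Retzius neurons, 2 of 4 in NPCs and 0 of 7 in ASTs. The shares of all genes there were 22.1, 22.1 and 13.4 percent. DESeq2 called 0 ligands in all 7 classes. Of all genes it called 1102 in OLGs, 116 in NPCs, 10 in ASTs and 7 in Cajal-Retzius neurons. It called 2 in PERs, 2 in VSMCs and 0 in VLMCs. *Ccl4* was nonetheless higher in 2VO 1 than in both sham libraries in OLGs (2.42, 0.694 and 47.7 CPM, adjusted p = 0.0533), in PERs (5.71, 1.44 and 72.2 CPM, 0.165) and in VSMCs (10.6, 0.567 and 64.0 CPM, 0.172). *Cxcl1* in VLMCs was read at 0 and 29.5 CPM in sham and 343 CPM in 2VO (4.08 ± 0.66, adjusted p = 0.0786), from 0, 15 and 44 counts. *Cxcl14* in ASTs, its source, was read at 797, 1061 and 670 CPM (−0.47 ± 0.26, adjusted p = 0.461). *Cxcl12* in OLGs had 1927, 178 and 88 counts, or 99.2, 20.6 and 35.6 CPM, and stood highest in sham 1. OLG clusters were also uneven, with 827, 606 and 59 cells in cluster 0 and 94, 232 and 646 in cluster 4.

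Of 24 receptor genes, the other arm of the pathway, 14 had 20 or more counts, 7 had 1 to 19, and *Cxcr1*, *Ccr4* and *Ccr8* had 0. They gave 51 pairs of receptor and class, of which 7 were called, 5 higher and 2 lower, against the same background of 4.96 percent. The highest was *Ackr1* (chr1:173331886-173333750, minus strand) in ECs, the atypical receptor of venules that carries inflammatory chemokines to the luminal surface. It was read at 3.48 and 2.07 CPM in sham 1 and sham 2 and 191 CPM in 2VO 1 (6.15 ± 0.25, adjusted p = 2.23e-05), from 14, 12 and 634 counts. The venous cluster held 14, 9 and 627 of these, in 5, 4 and 74 cells, the same cluster that held most 2VO counts of *Cxcl1* and *Cxcl2*. *Ackr1* overlaps *Cadm3* on the same strand in the annotation. *Ackr3*, which scavenges CXCL12, was read in ECs at 110, 98.1 and 46.4 CPM and fell by 1.16 ± 0.19 (adjusted p = 0.0263).

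*Ackr4*, the atypical receptor of CCL19, CCL21 and CCL25, belonged to CPECs with 98.0% of its counts. It was read there at 3.18, 3.17 and 10.8 CPM, and rose by 1.76 ± 0.31 (adjusted p = 0.00303). *Cx3cr1*, the receptor of CX3CL1, had 92.0% of its counts in microglia and was read at 3249 and 3342 CPM in sham and 1411 CPM in 2VO, where it fell by 1.22 ± 0.23 (adjusted p = 0.025). Per count of the 8 microglial markers it was at 0.154, 0.145 and 0.130 in the same cells. In classes with little *Cx3cr1* it was higher in 2VO, at 2.73, 2.24 and 14.5 CPM in ECs (2.54 ± 0.46, adjusted p = 0.0342), 0.764, 1.52 and 4.08 CPM in CPECs (1.96 ± 0.53, adjusted p = 0.0303) and 2.83, 0.859 and 28.6 CPM in OPCs (3.69 ± 0.55, adjusted p = 0.00394). Microglial markers were higher in 2VO in the same 3 classes, at 0.28, 0.25 and 0.82 counts per 10000 in CPECs. In CPECs the untested value was 1.34 without sham 1 and 3.06 without the cell with the most *Cx3cr1* UMIs in each library, and in OPCs it was 4.36 without sham 1.

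Gene lists beside the pathway were counted in each class, and their differences between classes were not tested. In ECs 5 of 13 tested genes of the NF-kappa B list rose, *Bcl2a1b*, *Icam1*, *Il1a*, *Il1b* and *Nfkbiz*, and 0 fell, against 1.69 percent of all endothelial genes called higher, with a median log2 fold change of 0.95 against −0.0034 over all genes. The 12 interferon response genes had a median of 0.042 there, and among 4 proteases that cut chemokines only *Dpp4* was called, lower. In microglia, where 5.05 percent of genes were called higher and 2.68 lower, the 14 NF-kappa B genes had a median of −0.15. There 6 of 12 interferon genes rose, *Ifit3*, *Ifitm3*, *Irf7* and *Rsad2* among them (median 2.22), and 11 of 21 genes of the early response to dissociation fell, *Atf3*, *Dusp1*, *Jun* and *Junb* among them (median −1.29). In CPECs 4 of 11 NF-kappa B genes rose, *Cd83*, *Icam1*, *Il1b* and *Nfkbia*, against 2.03 percent of genes called higher. In OPCs 5 of 10 rose, against 11.1 percent, *Il1a*, *Il1b*, *Nfkb1*, *Nfkbiz* and *Tnfaip3*. *Il1a* and *Il1b*, both cytokines, are also known as microglial products, and the microglial markers were higher in 2VO in ECs, OPCs and CPECs, as given above. *Bcl2a1b* was read at 540, 454 and 318 CPM in microglia against 0.497, 0 and 6.93 in ECs. In ECs of sham 1, sham 2 and 2VO 1 *Il1a* had 1, 0 and 20 counts and *Il1b* 0, 0 and 25. *Bcl2a1b* had 2, 0 and 23 there. In microglia *Rsad2* had 2, 2 and 25, *Oasl2* 5, 4 and 43 and *Ifit3* 12, 4 and 49. These reached 20 counts only through 2VO 1 and could be called only higher. Such counts are not given here for CPECs and OPCs.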

How the data were processed

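Single-cell RNA was read at the 3′ end of transcripts in 2 sham libraries and 1 2VO library. UMI counts per gene and barcode were used as deposited by the authors, who per the methods used Cell Ranger 3.1.0 and the GRCm38 genome, while the submitters' processing notes also name Seurat 3.2.2. How cells were called, and whether depth was equalized, is not given in the sources used here. The members and gene lists were chosen with earlier results of these data known.

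Barcodes with at least 650 genes were kept. Counts were scaled to 10000 per cell and logged, and 2000 variable genes, 30 principal components, 15 neighbours and the Leiden method (scanpy 1.11.5, leidenalg 0.10.2, resolution 1.0, seed 1) gave the clusters. Chemokine ligands and receptors, mitochondrial, ribosomal and haemoglobin genes did not enter the clustering. A cluster was named from at least 3 fixed markers, each found in 10% of its cells or more and at 2 times the level of other cells, with 0.05 added per 10000. Doublets (102, 132 and 117 cells marked by Scrublet in sham 1, sham 2 and 2VO 1) were kept and removed only in an alternative. For 2VO 1 no threshold of its own was found, and the mean of the other libraries was used.

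Summed counts were compared with edgeR 4.0.16 (R 4.3.3) in classes with at least 10 cells in each library and genes with at least 20 counts, which leaves 1 residual degree of freedom. A gene with few sham counts passes this filter only where 2VO 1 is high, and can then be called higher but not lower. EPNs had 9 cells in 2VO 1 and were not tested. The test was tried on simulated data before use. It returns no standard error. Each SE printed is the absolute log2 fold change divided by the square root of the F statistic of the test. Named were all ligands with 20 or more counts, every called ligand and receptor, and some of the uncalled ligands with the most counts in a class. No fold change is given for ligands in NPCs and Cajal-Retzius neurons, nor for several in other classes. Among these were *Cxcl12* in NPCs (log2 fold change 2.20) and in PERs (−1.08). Results of leaving out a library or a cell are log2 ratios of CPM with a prior count of 2 and carry no test. This prior shrinks the folds of low counts, so these values are not on the scale of the edgeR values. Intervals of shares are Clopper-Pearson. Alternatives were the default filter of edgeR, no filter, DESeq2 size factors, DESeq2 1.42.0, at least 200 genes per cell, removal of doublets, resolution 2.0, thinning to 1000 UMIs and each sham library or the richest cell left out. The fits within 1 microglial cluster and the alternatives for receptors were added after the data had been seen. Promoters came from RefSeq (GRCm38.p6) and gene positions from GENCODE vM21, which placed 38 of the 45 ligand rows. A few genes are left unreported.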

Additional observations from a re-analysis of the deposited data

Results flagged for a closer look

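*Cx3cr1* moved in opposite directions between classes in 2VO against sham. Its log2 fold change was −1.22 in microglia, where most of its counts lay, and 1.96 in CPECs, 2.54 in ECs and 3.69 in OPCs. In each of these classes 2VO 1 lay beyond both sham libraries. The difference between the classes was not tested. Cells that stayed without a class name (62, 236 and 163 in sham 1, sham 2 and 2VO 1) entered no comparison and also carried ligands. In them *Cxcl12* was read at 11.0 counts per 10000 in 2VO 1, above 6.96 and 5.46 in sham 1 and sham 2. *Ccl4* was read there at 0.42 in 2VO 1, above 0.049 and 0.042 in the sham libraries.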

How the results depend on the processing

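Of the 15 called ligand pairs, 15 were also called with the default filter of edgeR, with no filter and with doublets removed, 13 at resolution 2.0, 12 with DESeq2 size factors, 10 with 200 or more genes per cell and 6 with DESeq2. Ligands called higher numbered 12, against 40 with no filter, 21 with doublets removed and 5 with DESeq2. Those called lower numbered 3, against 13 with no filter, 6 with doublets removed, 1 with DESeq2 and 1 with 200 or more genes per cell. Of receptors 7 were called, against 17 with no filter, 11 with doublets removed and 1 with DESeq2, which was *Ackr1* in ECs. Calls over all genes moved as well. In ECs, CPECs, microglia, OPCs and GLUTNs DESeq2 called 72, 593, 44, 993 and 24 genes. The main fit called 245, 929, 771, 3195 and 59 there. In OLGs DESeq2 called 1102 genes and the main fit 0. For the other alternatives the number of pairs tested and the share of all genes called are not given here. *Ccl4*, *Ccl3* and *Cxcl1* in ECs stayed called under all 7 alternatives that tested them, with adjusted p up to 0.00545, 0.0142 and 0.0369. *Cxcl2* in ECs was called with no filter, with doublets removed and at resolution 2.0. *Ccl2* in microglia was called under 3 of 8 alternatives (adjusted p 4.43e-10 to 0.984), *Ccl9* under 5 of 8 (up to 0.982), *Cxcl12* in microglia under 7 of 8 (up to 0.982), *Cxcl12* in CPECs under 4 of 7 (up to 0.616), *Ccl4* in CPECs under 3 of 6 (up to 0.131) and *Cxcl12* in GLUTNs under 5 of 6 (up to 0.12). The cause of these differences was not tested.

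Among log2 fold changes that changed sign none had been called. They were *Ccl12* in microglia within 1 cluster at 0.91. With 200 or more genes per cell they were *Cxcl14* in GLUTNs at 0.0032, *Cxcl12* in OLGs at 1.05, *Ccl27a* in VLMCs at −0.058, *Cxcl16* in VLMCs at 0.12 and *Ccl27a* in VSMCs at −0.13. With doublets removed they were *Cxcl12* in ASTs at 1.81, *Cxcl14* in CPECs at 0.046, *Ccl27a* in PERs at 0.10 and *Ccl27a* in VSMCs at −0.070. At resolution 2.0 they were *Cxcl12* in OLGs at 1.05, *Cxcl1* in PERs at −0.20, *Cxcl16* in VLMCs at 0.024 and *Ccl27a* in VSMCs at −0.24. With DESeq2 *Ccl27a* in PERs was at 0.027, and with no filter *Ccl27a* in ASTs was at −0.024.

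The share of a ligand's counts in its leading class moved for *Xcl1* (0%), *Ccl22* (5.21%), *Ccl17* (0%) and *Ccl5* (17.6%) with 200 or more genes per cell. It moved for *Xcl1* (0%), *Ccl17* (0%), *Ccl22* (5.26%), *Ccl5* (15.5%), *Ccl19* (16.7%) and *Ccl12* (58.0%) at resolution 2.0, and for *Cxcl12* (84.4%) with doublets removed. Ranked by CPM, another class led for *Ccl27a* (196 CPM), *Cxcl1* (268), *Ccl25* (32.9), *Cx3cl1* (266), *Ccl17* (26.7), *Cxcl16* (168), *Ccl2* (763), *Ccl11* (9.35), *Ccl12* (1600) and *Ccl28* (1.75).

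No paired analysis was possible because only 1 2VO library was analysed, so the groups share 1 replicate number. Leaving out a sham library leaves no residual degree of freedom and therefore no count of calls. Ligands with few counts in a class are limited by depth.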
